A study of Mus musculus with 40 samples.

Results

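Blood taken on day 6 of pristane from 6 Ifnar1+/+ mice was compared with blood from 3 uninduced Ifnar1+/+ mice. These 9 libraries are all of the Ifnar1+/+ day 6 and uninduced libraries given no spermine, out of 40 libraries in the series, and they were chosen by their labels alone. Pristane is a hydrocarbon oil that brings on lupus-like disease in mice. All were 7-week-old females. The day 6 mice had received PBS for 3 days before pristane. The uninduced mice carry the same intact Ifnar1 gene and received no pristane. Their labels give no pretreatment, so pristane and the PBS given beforehand cannot be told apart. Also used were 6 Ifnar1+/+ mice with PBS bled on day 4 of pristane. Mice labelled Ifnar1-/-, meant to lack a chain of the type I interferon receptor in every cell, were used too (5 with PBS on day 6 of pristane and 3 uninduced). RNA came from whole blood drawn at the venous plexus behind the eye, was selected by its poly-A tail and was sequenced. Each library is 1 mouse, and levels are FPKM, which are fragments per kilobase of gene, so that they can be compared between genes of different length. The deposited values match scaling by a size factor per library, not by its fragment total. This factor is the median, over genes with reads in all 40 libraries, of the library's reads against the genes' geometric mean.

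Whole blood mixes red cell precursors, platelets, neutrophils, monocytes and lymphocytes, and its RNA changes with the share of each cell type and with what each cell transcribes. Neutrophils are short-lived phagocytes that pack antimicrobial proteins into primary, secondary and tertiary granules as they mature in the bone marrow, and they carry the S100a8 and S100a9 proteins in their cytosol. Ly6C-high monocytes are the inflammatory monocytes that leave the marrow through the chemokine receptor Ccr2. Type I interferon signals through Ifnar1 and Ifnar2, the kinases Jak1 and Tyk2, and a transcription factor complex with Irf9 that binds a short DNA element in the promoters of interferon-stimulated genes. Monocytes drawn to pristane in the peritoneum are a known source of type I interferon in mice.

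The day 6 libraries held 9960983 to 11391852 fragments and the uninduced libraries 9156431 to 10376103. Hemoglobin transcripts took 47.26 to 54.33 percent of them on day 6 and 44.05 to 58.67 percent in uninduced mice. Without hemoglobin 4651247 to 5374119 fragments remained on day 6 and 3784708 to 5543946 in uninduced mice. Day 6 mice 4 and 6 and uninduced mouse 3 stood apart by a low mitochondrial share of the fragments without hemoglobin, at 1.082, 1.107 and 1.068 percent. In the other day 6 mice the share was 1.718 to 1.933 percent and in the other uninduced mice 1.726 and 1.827 percent. Of the whole series 7 libraries were under 1.2 percent, and counts that changed when these were left out are given beside the main ones. Markers of neutrophils, B cells, T cells, platelets and red cells were present in all 9 libraries. Of 11 genes of lens, retina and other tissue near the bleeding site, 4 were at 0 in all 9 mice, among them Cryaa, Cryba1 and Gnat1, and the 11 summed to 0.23 to 4.22 FPKM on day 6 and 1.31 to 1.62 FPKM in uninduced mice. In bulk blood, fewer cells of a type and less RNA per cell cannot be told apart.

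Of 11829 genes tested, 661 rose and 305 fell on day 6 (limma on log2(FPKM + 1), Benjamini-Hochberg adjusted p under 0.05). That is 5.59 percent of the genes higher and 2.58 percent lower (8.17 percent in all), and these shares are the background for the counts of gene groups. Gene lists for the pathways and cell types described held 661 distinct genes, of which 601 passed the filter on low values (1 FPKM or more in at least 3 of 40 libraries), 56 did not and 4 were not matched to the table by symbol. A gene past this threshold is called risen or fallen below, and log2 changes are on the log2(FPKM + 1) scale, which understates the change of low genes. The median change of all genes was 0.02. In 843 genes (7.13 percent) every day 6 mouse stood above every uninduced mouse, and in 585 (4.95 percent) every one stood below. When the 7 libraries of low mitochondrial share were left out, 520 genes rose (4.4 percent) and 161 fell (1.36 percent). Scaling to the same number of fragments outside hemoglobin per library left 103 higher (0.873 percent) and 59 lower (0.5 percent), with a median of all genes of -0.13. Scaling to the same number of fragments with hemoglobin included left 49 higher (0.397 percent) and 8 lower (0.0649 percent), with a median of -0.12. These are called the fixed totals below. A fit of only the groups compared gave 368 up (3.64 percent) and 85 down (0.84 percent). Of the single mice, uninduced mice 1 and 3 moved the count most, to 457 and 488 genes in all when left out.

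**Figure D1:**
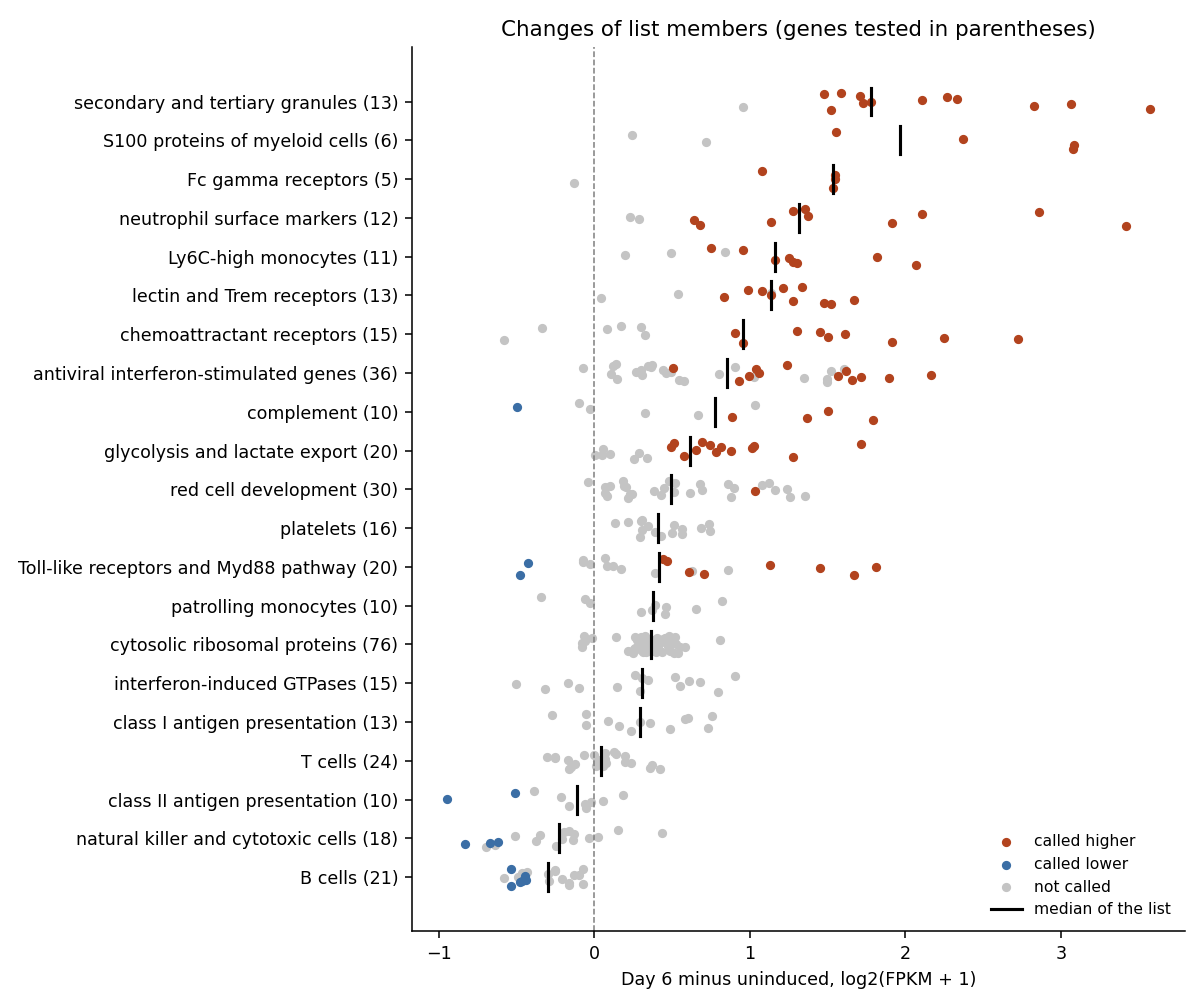
Each point is 1 tested gene of a list, placed by its log2 change between 6 day 6 and 3 uninduced mice. Red points were called higher, blue points lower and grey points neither, and the black bar is the list's median. Secondary and tertiary granule genes have a median of 1.77 with 12 of 13 called, S100 genes a median of 1.96 with 4 of 6 called, and all 21 B cell genes lie below 0.

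Neutrophil genes showed the largest rises among the genes ranked. The ranking left out predicted or unnamed genes, antibody and T cell receptor segments and sex-linked marker genes. Of the rest at 5 FPKM or more, the 12 called genes with the highest log2 changes were Wfdc21, Lcn2, Ly6g, Lrg1, S100a9, S100a8, Mmp8, Ifitm6, Retnlg, Ngp, Fpr1 and Asprv1. Their log2 changes ran down to 2.57, and each of the 12 kept its call under all 17 alternatives tried. Most are known from mature neutrophils or their precursors. Lcn2, which encodes a granule protein that traps bacterial iron carriers, stood at 59.4, 92.1, 51.5, 37.9, 61.1 and 19.2 FPKM in day 6 mice 1 to 6, against 4.33, 2.29 and 3.07 FPKM in the uninduced mice. The lowest day 6 mouse was thus above the highest uninduced mouse (log2 change 3.57 ± 0.31 SE, adjusted p = 7.64e-10).

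S100a8 and S100a9, neighbours on chromosome 3, encode the subunits of calprotectin, which binds zinc, manganese and calcium. S100a9 had 2600, 2740, 2190, 1380, 2800 and 693 FPKM in day 6 mice 1 to 6, against 284, 258 and 143 FPKM in uninduced mice (3.08 ± 0.39, adjusted p = 8.87e-07). S100a8 had 1290, 1490, 1260, 793, 1510 and 361 FPKM on day 6 and 164, 136 and 74.1 FPKM in uninduced mice (3.08 ± 0.40, adjusted p = 1.45e-06). Mouse 6 was the lowest and mouse 4 the second lowest of the day 6 mice for both genes, and the groups did not overlap. By means the genes stood 8.95-fold (S100a8) and 9.05-fold (S100a9) higher on day 6. Of 6 S100 genes of myeloid cells 4 rose and 2 were not called (median 1.96), and 3 and 2 were called with the fixed totals without and with hemoglobin. The others that rose were S100a6 (2.37 ± 0.41) and S100a11 (1.56 ± 0.32), both calcium-binding proteins with wider expression.

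Of 13 genes of secondary and tertiary granules 12 rose and 1 was not called, with a median log2 change of 1.77, and the same counts, 12 and 0, were found with the low-mitochondrial libraries left out. With the fixed total without hemoglobin 9 rose, and with hemoglobin 5. Mmp8, the neutrophil collagenase, ranged from 20 to 96.6 FPKM on day 6 with a median of 70, against 5.23, 6.01 and 7.68 FPKM in uninduced mice (3.06 ± 0.36, adjusted p = 1.79e-07). Hp, which encodes the hemoglobin scavenger haptoglobin, had a lowest, median and highest day 6 value of 71.7, 132 and 149 FPKM, against 25.5, 28.5 and 18.6 FPKM in uninduced mice (2.27 ± 0.29, adjusted p = 1.33e-06). Adam8, a protease of the granule membrane, had 6.09, 11.4 and 13.6 FPKM as lowest, median and highest day 6 value, against 3.62, 2.96 and 3.09 FPKM (1.47 ± 0.20, adjusted p = 2.3e-06). Ngp, which encodes a granule protein of neutrophil precursors, stood at 10.3 to 52.6 FPKM on day 6 and at 1.64, 3.27 and 1.23 FPKM in uninduced mice (2.82 ± 0.42, adjusted p = 1.21e-05). Mouse 2 was highest for Ngp, Lcn2 and Mmp8, and mouse 6 was lowest for all 3.

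Primary granule genes, which are transcribed earlier in the marrow, were scarce. Mpo, Elane and Ctsg, at means of 0.0189, 0.401 and 0.0164 FPKM on day 6, did not pass the filter. Of 9 genes of primary granules and granulocyte precursors 4 passed it. They were the primary granule gene Prtn3, Padi4 and the transcription factor genes Gfi1 and Cebpe. Of these, 2 rose (Prtn3 and Padi4), against 1 and 0 with the fixed totals without and with hemoglobin. With the low-mitochondrial libraries left out 2 were higher and Gfi1, a transcription factor of granulocyte precursors, was called lower. Padi4, which encodes the enzyme that citrullinates histones when neutrophils release their chromatin, had 7.23, 9.57, 5.61, 5.35, 11 and 3.04 FPKM on day 6 and 2.18, 2.01 and 2.05 FPKM in uninduced mice (1.28 ± 0.22, adjusted p = 0.000159). Prtn3, which encodes proteinase 3, lay between 1.06 and 2.38 FPKM on day 6, and at 0.214, 0.0825 and 0 FPKM in uninduced mice (1.34 ± 0.28, adjusted p = 0.00153). Of 7 subunits of the phagocyte NADPH oxidase, which makes superoxide, 2 rose, with a list median of 0.53. Cybb, the catalytic subunit, changed by 0.75 ± 0.20, and no gene of the list was called with the fixed totals.

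The promoters of 3 granule genes are shown because all of them hold the motif TTGCNNAA, searched on both strands, which is a short form of the site bound by C/EBP transcription factors of the granulocyte line. Each run covers 250 bases before to 50 bases after the RefSeq start on build GRCm38.p6, written 5′ to 3′ on the gene's strand, with motif matches in capitals.
Ngp (chr9:110419558-110419857, plus strand): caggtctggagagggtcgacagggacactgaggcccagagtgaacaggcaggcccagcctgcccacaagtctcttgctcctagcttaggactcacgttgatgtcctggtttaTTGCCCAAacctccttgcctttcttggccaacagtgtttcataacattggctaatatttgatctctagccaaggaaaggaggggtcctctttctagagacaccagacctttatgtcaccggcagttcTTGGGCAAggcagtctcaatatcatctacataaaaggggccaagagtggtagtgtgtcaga
Lcn2 (chr2:32387690-32387989, minus strand): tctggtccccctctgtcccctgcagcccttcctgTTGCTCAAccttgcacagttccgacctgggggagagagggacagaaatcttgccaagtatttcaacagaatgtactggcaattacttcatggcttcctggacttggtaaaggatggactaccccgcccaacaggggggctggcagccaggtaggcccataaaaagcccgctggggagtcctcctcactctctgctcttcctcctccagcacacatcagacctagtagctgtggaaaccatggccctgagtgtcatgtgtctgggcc
Mmp8 (chr9:7558179-7558478, plus strand): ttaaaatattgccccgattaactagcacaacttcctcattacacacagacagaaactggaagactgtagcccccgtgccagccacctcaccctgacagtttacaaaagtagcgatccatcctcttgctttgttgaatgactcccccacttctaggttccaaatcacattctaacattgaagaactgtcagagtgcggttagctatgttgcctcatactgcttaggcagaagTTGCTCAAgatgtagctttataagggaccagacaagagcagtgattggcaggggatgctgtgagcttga
The motif was present in 6 of 11 secondary and tertiary granule genes that matched the promoter table (54.5 percent), against 3298 of 27025 genes (12.2 percent) in the whole table. In other neutrophil lists it was present in 1 of 5 S100 genes and 2 of 10 surface genes (20.0 percent each). In interferon lists it was present in 6 of 14 Ifi200 and Schlafen genes (42.9 percent), 2 of 10 GTPase genes (20.0 percent) and 0 of 28 antiviral genes. Among the genes called higher it was present in 75 of 526 matched genes (14.3 percent), and among those called lower in 25 of 201 (12.4 percent), against 823 of 7854 (10.5 percent) of all genes tested. A match describes the letters of the window and shows no binding.

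Genes for the surface and the migration of neutrophils and other white cells rose beside the granule genes. The chemoattractant and the lectin and Trem lists also hold genes of monocytes and other cells, and Ccr2 is also in the Ly6C-high list below. Of 12 neutrophil surface genes 10 rose (median 1.31), of 15 chemoattractant receptor genes 9 rose (median 0.95), and of 13 lectin and Trem receptor genes 10 rose (median 1.14), with none lower in these lists. Ly6g, the antigen by which mouse neutrophils are sorted, had 26.2, 39.7, 24.5, 17.6, 26.9 and 1.93 FPKM in day 6 mice 1 to 6, against 1.1, 0.152 and 1.2 FPKM in uninduced mice (3.42 ± 0.46, adjusted p = 2.13e-06). Mouse 6 was close to the uninduced mice for Ly6g and far below the other 5 day 6 mice. Cxcr2, the receptor by which neutrophils leave the marrow, had 71.1, 65.4, 63.6, 61.5, 71.1 and 39.6 FPKM on day 6, against 17.9, 11.5 and 17.9 FPKM (1.91 ± 0.20, adjusted p = 3.8e-08). Mouse 6 was again the lowest, but well above the uninduced mice. Retnlg, a resistin-like gene of neutrophils (201 to 757 FPKM on day 6, 54.1 to 81 FPKM in uninduced mice), and the Myc antagonist gene Mxd1 (13.8 to 25.2 and 6.93 to 7.77 FPKM) rose too. Among receptors, Fpr1 senses formyl peptides of bacteria and C5ar1 the complement fragment C5a. Fpr1 changed by 2.72 ± 0.30 (adjusted p = 8.2e-08) and C5ar1 by 1.5 ± 0.20 (adjusted p = 1.46e-06). Trem1, which amplifies inflammatory signals, had 5.08, 7.17 and 8.42 FPKM as lowest, median and highest day 6 value and 2.16, 0.858 and 2.6 FPKM in uninduced mice (1.52 ± 0.16). Clec4e, a receptor for mycobacterial cord factor, changed by 1.67 ± 0.21, Trem3 by 1.48 ± 0.27 and the inhibitory receptor gene Pirb by 0.98 ± 0.18. With the low-mitochondrial libraries left out, 9 surface, 8 chemoattractant and 10 lectin or Trem genes were called. The counts were 5, 6 and 2 with the fixed total without hemoglobin, and 3, 3 and 1 with hemoglobin in it.

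**Figure D2:**
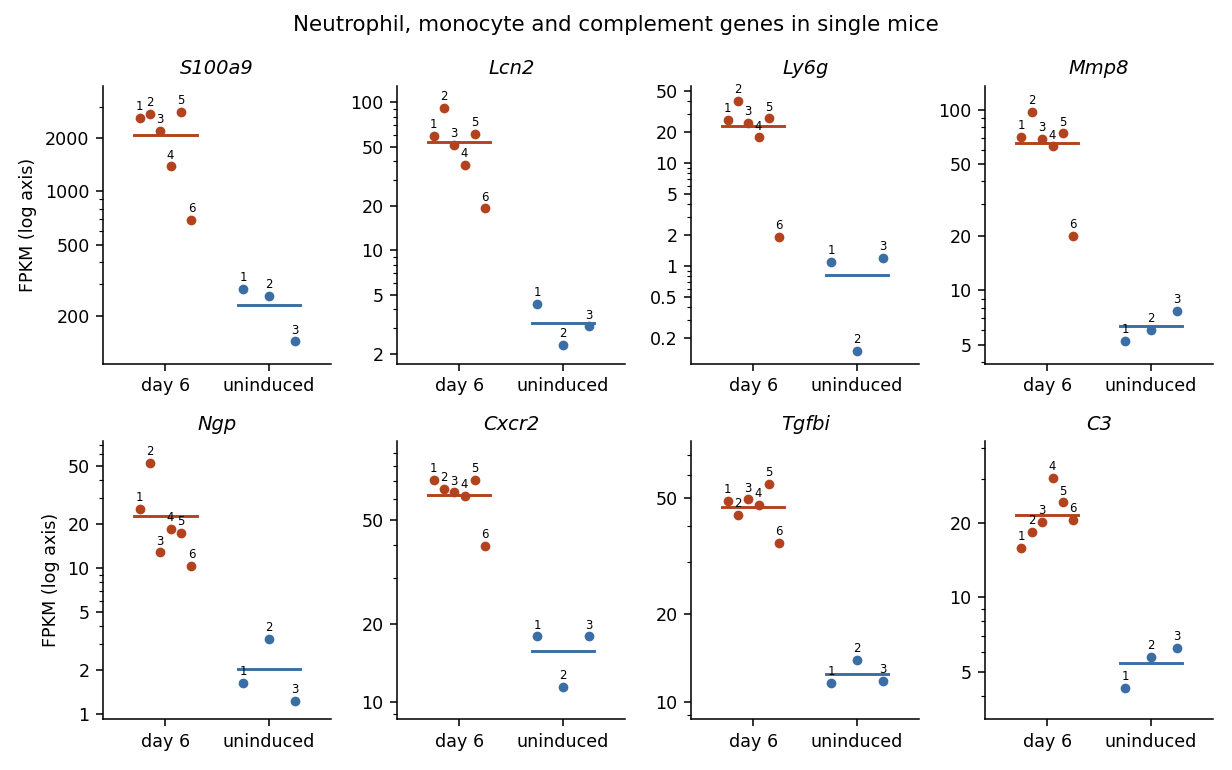
FPKM on a log axis in each day 6 mouse (red, left) and uninduced mouse (blue, right), with mouse numbers above the points and a bar at the mean. All day 6 mice lie above all uninduced mice in each panel, and mouse 6 is the lowest day 6 mouse for every gene shown except C3.

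Monocyte genes rose in 8 of 11 members of the Ly6C-high list (median 1.16), with 5 called with the low-mitochondrial libraries left out, 4 with the fixed total without hemoglobin and 1 with hemoglobin in it. Tgfbi, which encodes a matrix protein abundant in monocytes, had 48.8, 43.7, 49.4, 47.2, 55.7 and 35.1 FPKM on day 6 and 11.6, 13.9 and 11.8 FPKM in uninduced mice (1.81 ± 0.19, adjusted p = 3.8e-08). Ly6c2, the gene of the antigen that names these cells, had 47.2, 44.5, 55.6, 32.3, 59.9 and 39.6 FPKM on day 6 and 9.4, 19.8 and 5.37 FPKM in uninduced mice (2.07 ± 0.36, adjusted p = 0.000149). F13a1, coagulation factor XIII, changed by 1.27 ± 0.24 and Ccr2 by 1.3 ± 0.25. Neither group overlapped the other for Tgfbi and Ly6c2, and for Ccr2 the lowest day 6 mouse (11 FPKM) lay below the highest uninduced mouse (12.7 FPKM). None of 10 genes of patrolling monocytes was called by limma (median 0.38, 2 at an unadjusted p under 0.05) or by limma-voom. Treml4, the one with the smallest p there, had 4.65 to 6.62 FPKM on day 6 and 2.82, 4.79 and 2.52 FPKM in uninduced mice (0.65 ± 0.23, adjusted p = 0.0745).

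Fc gamma receptors bind antibody-coated particles, and 4 of 5 genes of this list rose (median 1.54), against 2 and 1 with the fixed totals without and with hemoglobin. Fcgr1, the high-affinity receptor, had 5.43, 3.92, 5.01, 4.96, 6.39 and 6.19 FPKM on day 6, against 0.774, 1.88 and 0.971 FPKM in uninduced mice (1.54 ± 0.31, adjusted p = 0.00115). Fcgr3 (1.55 ± 0.21), Fcgr4 (1.54 ± 0.27) and their shared signalling chain gene Fcer1g (1.08 ± 0.22) rose as well. For Fcgr4 the 6 day 6 mice lay close together, from 13.9 to 16.5 FPKM, and the uninduced mice were at 5.2, 6.14 and 2.6 FPKM. Of 10 complement genes 4 rose and 1 fell. With the fixed totals 2 and 1 rose and none fell, and none fell with the low-mitochondrial libraries left out. C3, the central component, had 15.8, 18.3, 20.1, 30.3, 24.1 and 20.5 FPKM on day 6 and 4.3, 5.75 and 6.24 FPKM in uninduced mice (1.79 ± 0.24, adjusted p = 2.81e-06), and mouse 4 was the highest. Cfp, which encodes properdin, a stabiliser of the alternative pathway convertase, changed by 1.37 ± 0.21.

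Genes that sense microbes and pass on inflammatory signals moved in part. Of 20 genes of the Toll-like receptor pathway 8 rose and 2 fell (median 0.41). With the fixed totals without and with hemoglobin 3 and 1 rose, with the low-mitochondrial libraries left out 5 rose, and under these settings none fell. Tlr2, a receptor for bacterial lipoproteins, had 5.59, 8.54 and 12.6 FPKM as lowest, median and highest day 6 value and 2.17, 2.37 and 1.59 FPKM in uninduced mice (1.67 ± 0.18, adjusted p = 3.8e-08). The ribosomal RNA sensor gene Tlr13 (1.45 ± 0.21), the endotoxin coreceptor gene Cd14 (1.81 ± 0.33) and the adaptor gene Myd88 (1.13 ± 0.25) rose as well. Of 16 genes of the interleukin 1 system and the inflammasome 6 rose, against 2 and 1 with the fixed totals and 5 with the low-mitochondrial libraries left out. Among the 4 with the smallest p were Il1r2, a decoy receptor that traps interleukin 1 (4.25 to 9.91 FPKM on day 6, 0.857 to 1.98 FPKM in uninduced mice, 1.76 ± 0.22), and Il1rn, the receptor antagonist (1.13 ± 0.17). The others were the inflammasome genes Nlrp12 (0.84 ± 0.16) and Mefv (0.92 ± 0.19). Of 23 genes of JAK-STAT and cytokine receptors 7 rose, against 1 and 0 with the fixed totals and 5 with the low-mitochondrial libraries left out. They included Csf2rb, a shared receptor chain for GM-CSF (1.57 ± 0.18, adjusted p = 8.67e-08), its near copy Csf2rb2 (1.12 ± 0.20), the feedback inhibitor gene Socs3 (1.2 ± 0.22) and Stat3 (0.48 ± 0.11). Reads of Csf2rb and Csf2rb2 may be shared between the copies. Of 20 genes of NF-kB and inflammation 2 rose, Ier3 (1.23 ± 0.34) and Tnf (0.82 ± 0.24), and 1 fell, Tnfaip3 (-0.37 ± 0.10), an inhibitor of the pathway. Of 9 transcription factor genes of the granulocyte line 3 rose, namely Spi1 (1.07 ± 0.27), Cebpd (1.07 ± 0.29) and Cebpb (1.21 ± 0.35). None of the 3, and no gene of the NF-kB list, was called with the fixed totals. With the low-mitochondrial libraries left out 1 NF-kB gene was higher and 1 lower, and of the transcription factors 2 were higher and 1, Gfi1, lower.

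Glycolysis genes rose in 13 of 20 members of the list, with none lower (median 0.61). With the fixed totals without and with hemoglobin 2 and 1 were called, and 11 with the low-mitochondrial libraries left out. Slc16a3, which exports lactate, had 13.3, 10.6, 6.85, 9.84, 10.5 and 5.6 FPKM on day 6 and 2.32, 2.15 and 1.82 FPKM in uninduced mice (1.71 ± 0.19, adjusted p = 9.93e-08). Pkm, a pyruvate kinase, had 75.8 to 106 FPKM on day 6 and 34.7, 50.1 and 46.7 FPKM in uninduced mice (1.03 ± 0.15, adjusted p = 9.09e-06). Pgk1 (1.01 ± 0.15) and Hk3 (1.27 ± 0.19), a hexokinase of myeloid cells, rose too. Pkm and Pgk1 were as high in mice 4 and 6 as in the others, whereas Hk3 was lowest in those mice, at 7.54 and 4.71 FPKM against 9.94 to 11.5 FPKM in the other 4. Of 11 genes of polyamine metabolism 1 rose, Arg2, which encodes an arginase (1.34 ± 0.22, adjusted p = 4.91e-05), a call lost with both fixed totals. Of 7 basophil genes 1 rose, Hdc, which makes histamine and is also found in neutrophils and monocytes (8.44 to 14.6 FPKM on day 6, 2.76, 1.72 and 2.62 FPKM in uninduced mice, 2.02 ± 0.20, adjusted p = 2.5e-08). The other basophil markers named, Gata2, Mcpt8 and Ms4a2, were not called (0.36, -0.41 and -0.27).

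Some interferon-stimulated genes rose on day 6, and the day 6 mice differed in their levels. Of 38 antiviral genes 36 passed the filter, 12 rose and 24 were not called, with a median of 0.85, and 35 of the 36 changes were above 0. The count was 3 and 2 with the fixed totals without and with hemoglobin, and 6 with a pseudocount of 0.1 and with no filter. It was 8 with a replicate block and 4 with the low-mitochondrial libraries left out. With only the groups compared it was 13, and with limma-voom 10. In 18 of the 36 all day 6 mice lay above all uninduced mice. Oas1a, an enzyme that senses double-stranded RNA, had 11.8, 14.2, 16.8, 17.6, 16.4 and 18.2 FPKM on day 6 and 4.37, 5 and 1.8 FPKM in uninduced mice (1.90 ± 0.34, adjusted p = 0.000237). Its near copy Oas1g, with which it may share reads, changed by 1.71 ± 0.32. Ifitm3, a membrane protein that blocks virus entry, had 190, 187, 185, 217, 218 and 168 FPKM on day 6 and 44.6, 103 and 52.1 FPKM in uninduced mice (1.62 ± 0.30, adjusted p = 0.000318). Lgals3bp, a secreted glycoprotein, changed by 1.24 ± 0.26 (adjusted p = 0.0015). Those 4 genes were the ones still called with the low-mitochondrial libraries left out, where the list median was 0.53.

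Another set of these genes was highest in mice 4 and 6 by FPKM, and the scaling of these mice is given below. Irf7, the transcription factor that amplifies interferon production, had 129, 134, 123, 363, 119 and 413 FPKM in day 6 mice 1 to 6, against 32.5, 73.4 and 99.8 FPKM in uninduced mice (1.55 ± 0.47, adjusted p = 0.0348). Isg15, a ubiquitin-like modifier, had 551, 689, 547, 1930, 547 and 1360 FPKM on day 6 and 155, 597 and 261 FPKM in uninduced mice, and was not called (1.5 ± 0.51, adjusted p = 0.0604). Ifit1, which binds foreign RNA, had 32.7, 35.7, 42.9, 109, 41.7 and 116 FPKM on day 6 and 9.31, 20.6 and 23.9 FPKM in uninduced mice (1.66 ± 0.52, adjusted p = 0.0431). For all 3 genes mice 4 and 6 stood above the other 4 day 6 mice, and for Isg15 those 4 overlapped uninduced mouse 2. Rsad2 and Oasl2, chosen after their values were seen, had the widest gaps. Rsad2, which encodes viperin, had 2700 and 1680 FPKM in mice 4 and 6, 365 to 609 FPKM in the other day 6 mice and 214, 492 and 709 FPKM in uninduced mice (0.80, adjusted p = 0.403). Oasl2 had 124 and 110 FPKM in mice 4 and 6, 18.1 to 33.6 FPKM in the other day 6 mice and 8.09, 6.3 and 14.1 FPKM in uninduced mice (2.16, adjusted p = 0.0408). With the low-mitochondrial libraries left out, Irf7 (1.35, adjusted p = 0.088), Isg15 (0.93, adjusted p = 0.43) and Ifit1 (1.39, adjusted p = 0.18) were not called.

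**Figure D3:**
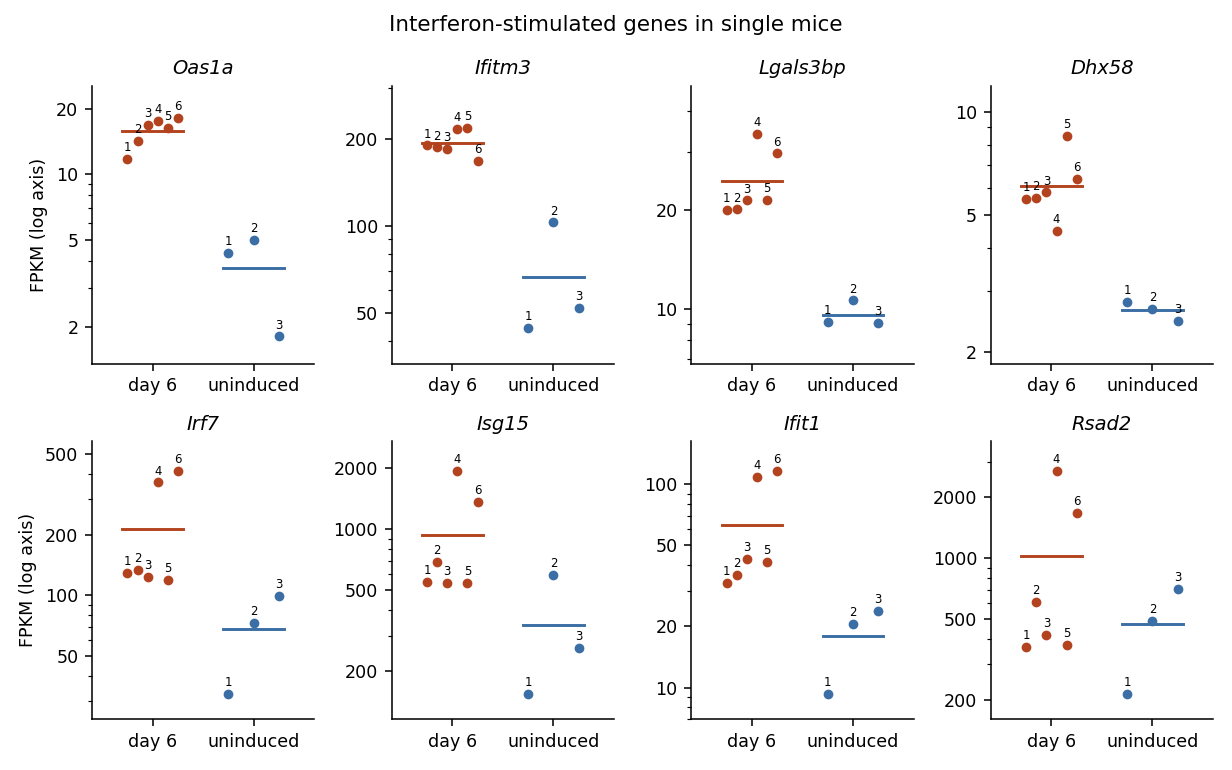
FPKM on a log axis of 8 interferon-stimulated genes in each day 6 mouse (red, left) and uninduced mouse (blue, right), numbered by mouse, with a bar at the mean. In the upper row the day 6 mice lie above all uninduced mice, and in the lower row mice 4 and 6 lie above the other day 6 mice.

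Of the 36 antiviral genes 14 were higher in both mice 4 and 6 than in any other day 6 mouse, and 5 were lower in both. Over all genes tested these shares were 19.0 and 15.8 percent. All 30 genes of red cell development tested were higher in both, with a median ratio of 4.01 between the mean of mice 4 and 6 and the mean of the other day 6 mice, and so were 15 of 16 platelet genes (median ratio 1.76). Among secondary and tertiary granule genes 6 of 13 were lower in both mice (median ratio 0.57). The mean log2 level of the red cell list was 6.56 and 6.09 in mice 4 and 6, 4.52 to 5.01 in the other day 6 mice and 3.95, 4.93 and 5.1 in uninduced mice. Mice 4 and 6 had size factors of 0.5022 and 0.5657, against 0.7277 to 1.068 in the other day 6 mice, and held more fragments. The same number of fragments thus gives a higher FPKM in them, for every gene. By FPKM Hba-a1 was 2.25-fold higher in them. Hemoglobin took 53.51 and 52.7 percent of their fragments and 47.26 to 54.33 percent in the others. Ratios with a fixed total were not computed. The part of red cell RNA, of this scaling and of the low mitochondrial share in the interferon values of these mice was not tested.

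The promoters of Oas1a, Ifit1 and Isg15 are shown because these genes differed in their spread among the mice while each holds the interferon response element, 2 copies of GAAA with any 2 bases (NN) between them, searched on both strands. The windows are as above, and the capitals mark the matches, which overlap in Oas1a and Isg15.
Oas1a (chr5:120907476-120907775, minus strand): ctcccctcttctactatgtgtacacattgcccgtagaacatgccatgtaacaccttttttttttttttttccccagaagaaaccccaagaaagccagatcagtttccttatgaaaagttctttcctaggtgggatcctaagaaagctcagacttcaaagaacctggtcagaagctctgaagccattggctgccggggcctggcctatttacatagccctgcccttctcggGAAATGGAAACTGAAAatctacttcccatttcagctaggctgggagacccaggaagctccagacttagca
Ifit1 (chr19:34640639-34640938, plus strand): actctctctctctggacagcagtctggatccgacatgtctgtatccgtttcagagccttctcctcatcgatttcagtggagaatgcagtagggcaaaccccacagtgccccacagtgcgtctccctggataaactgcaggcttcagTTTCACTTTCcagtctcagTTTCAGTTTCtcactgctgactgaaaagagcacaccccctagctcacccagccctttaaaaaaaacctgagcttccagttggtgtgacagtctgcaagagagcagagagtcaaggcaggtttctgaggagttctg
Isg15 (chr4:156200769-156201068, minus strand): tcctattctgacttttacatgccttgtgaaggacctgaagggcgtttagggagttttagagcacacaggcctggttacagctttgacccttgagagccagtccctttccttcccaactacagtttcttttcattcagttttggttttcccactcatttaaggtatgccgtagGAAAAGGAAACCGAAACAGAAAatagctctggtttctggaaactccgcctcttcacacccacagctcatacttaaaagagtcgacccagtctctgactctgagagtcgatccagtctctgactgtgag
The element was present in 12 of 28 matched antiviral genes (42.9 percent) and in 9 of 10 interferon-induced GTPase genes (90.0 percent), against 1079 of 27025 genes (3.99 percent) in the whole table. Among the genes called higher it was present in 40 of 526 matched genes (7.6 percent), and among those called lower in 7 of 201 (3.48 percent), against 332 of 7854 (4.23 percent) of all genes tested. None of the 11 secondary and tertiary granule genes held it in this window.

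Genes upstream of these targets moved less. Of 15 genes of interferon receptors and signalling 2 rose, Irf7 and Ifnar2 (0.54 ± 0.16, adjusted p = 0.0295), and Ifnar2 was highest in mice 4 and 6 (13.5 and 11 FPKM, against 6.55 to 8.3 FPKM in the other day 6 mice). No gene of this list was called with either fixed total, with no filter, with only the groups compared or with the low-mitochondrial libraries left out. Ifnar1 had 7.7, 8.76, 9.02, 8.68, 7.92 and 6.32 FPKM on day 6 and 10.3, 8.9 and 8.19 FPKM in uninduced mice (-0.16 ± 0.12, adjusted p = 0.426). Jak1 had 37.9 to 48.8 FPKM on day 6 and 43.3, 35.6 and 48.9 FPKM in uninduced mice (0.01 ± 0.15, adjusted p = 0.975), so the groups overlapped. Irf9, the DNA-binding subunit of the complex, was not called (0.42 ± 0.19, adjusted p = 0.191). Of 10 nucleic acid sensor genes 2 rose, the helicase gene Dhx58 (4.5 to 8.48 FPKM on day 6, 2.79, 2.66 and 2.46 FPKM in uninduced mice, 0.94 ± 0.19) and Trim30a (0.73 ± 0.20), and neither was called with the fixed totals. None of 15 interferon-induced GTPase genes was called by limma over all groups (median 0.31, 2 at an unadjusted p under 0.05) or limma-voom, and 3 were called higher with only the groups compared. Of 15 Ifi200 and Schlafen genes 6 rose, against 0 with either fixed total and 4 with the low-mitochondrial libraries left out. Among them were Slfn4, a myeloid Schlafen gene (33.2 to 104 FPKM on day 6, 14.1, 11.5 and 9.36 FPKM in uninduced mice, 2.25 ± 0.45), and Ifi211 (1.61 ± 0.35). Members of these 2 clusters are close copies, so their reads may be split between neighbours. None of 13 class I presentation genes was called by limma over all groups (median 0.29, 5 at an unadjusted p under 0.05) or limma-voom, and 1 was called higher with only the groups compared. B2m, the light chain of class I molecules, had 1400 to 2640 FPKM on day 6 and 888, 1240 and 1120 FPKM in uninduced mice (0.73 ± 0.28, adjusted p = 0.1).

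**Figure D4:**
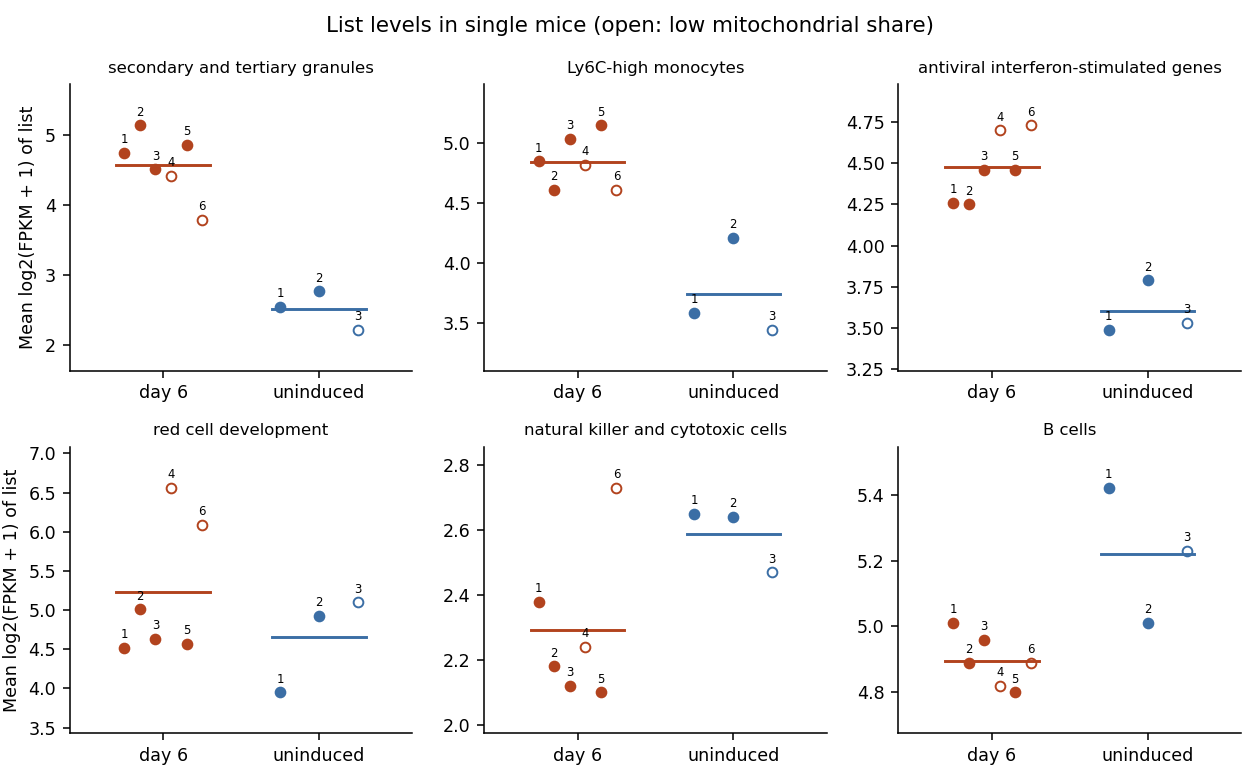
The mean log2(FPKM + 1) of each list's tested genes in each day 6 mouse (red, left) and uninduced mouse (blue, right), with a bar at the group mean. Open circles are the libraries of low mitochondrial share. Mice 4 and 6 have the highest red cell and antiviral levels on day 6, and mouse 6 has the lowest granule level (3.79).

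Lymphocyte genes were lower or not called. Of 21 B cell genes 6 fell and 15 were not called, all 21 changes were below 0 (median -0.30), and 2 of them were called with the low-mitochondrial libraries left out. No B cell gene was called in the limma fit of only the groups compared (9 at an unadjusted p under 0.05), and limma-voom called 5. With the fixed totals without and with hemoglobin 2 and 0 were called. Cd22, an inhibitory receptor of B cells, had 28.5, 25.3, 26.3, 26.9, 26.3 and 31.3 FPKM on day 6 and 45.2, 30.1 and 42.2 FPKM in uninduced mice (-0.48 ± 0.12, adjusted p = 0.0102). Mouse 6 stood above uninduced mouse 2, so the groups overlapped. Fcer2a, the low-affinity IgE receptor, had 33.1 to 39.2 FPKM on day 6 and 58.5, 47.2 and 49.5 FPKM in uninduced mice (-0.47 ± 0.13, adjusted p = 0.0224), without overlap. The kinase gene Blk (-0.44 ± 0.12) and Ralgps2 (-0.54 ± 0.15) fell as well. Of 10 class II presentation genes 2 fell, against 1 with the low-mitochondrial libraries left out and 0 with the fixed totals. H2-DMb1 encodes a chain of H2-DM, which loads peptides onto class II molecules, and H2-Ob a chain of H2-O, which restrains H2-DM. H2-DMb1 had 15.3, 11.3, 14.9, 10.4, 14.3 and 9.57 FPKM on day 6 and 29.6, 23.2 and 22.6 FPKM in uninduced mice (-0.95 ± 0.20, adjusted p = 0.00185), and H2-Ob changed by -0.51 ± 0.14. Of 5 genes of antibody-secreting cells 1 rose, Xbp1 (0.66 ± 0.12), which is also used by other cells and was not called with the fixed totals, while Sdc1, Irf4 and Mzb1 were not called (-0.47, -0.42 and -0.32).

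Of 18 natural killer and cytotoxic genes 3 fell, with a median of -0.23, and none rose. With the fixed totals without and with hemoglobin 1 and 0 fell. They were the lectin receptor genes Klrk1, Klre1 and Klrd1, which lie in 1 cluster on chromosome 6. Klrk1 had 1.46, 1.06, 1.6, 1.45, 1.27 and 1.22 FPKM on day 6 and 2.52, 2.51 and 2.75 FPKM in uninduced mice (-0.62 ± 0.14, adjusted p = 0.00465). Klrd1 had 8.99, 7.02, 7.97, 3.63, 9.71 and 10.3 FPKM on day 6 and 15.6, 13.5 and 13.9 FPKM in uninduced mice (-0.83 ± 0.24, adjusted p = 0.0228), and Klre1 changed by -0.67 ± 0.19. All 6 day 6 mice lay below the uninduced mice for these 3 genes. With the low-mitochondrial libraries left out, 3 genes of the list were called lower too, but they were Eomes, Klrc2 and Klrk1, of which Eomes is named after its values were seen. The list's mean level was 2.73 in mouse 6, above the uninduced mice (2.47 to 2.65), and 2.1 to 2.38 in the other day 6 mice. None of 24 T cell genes was called by limma or limma-voom (0 at an unadjusted p under 0.05), with a median of 0.04 that turned to -0.19 with the fixed total without hemoglobin. The T cell receptor chain gene Cd3g had 8.61 to 12.9 FPKM on day 6 and 7.86, 9.39 and 6.19 FPKM in uninduced mice (0.36 ± 0.20, adjusted p = 0.294).

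With the same kinds of genes left out, the changes of the 12 lowest called genes at 5 FPKM or more were smaller in size, from -1.49 to -0.68. The pseudogenes Klra14-ps and Klra13-ps of the Ly49 receptor cluster were among them (-1.49 ± 0.33 and -0.89 ± 0.24), and their reads may belong to close copies. Others act in chromatin or splicing. Kmt2a, a histone H3 methyltransferase, had 5.27, 3.96, 5.47, 5.63, 5.7 and 5.18 FPKM on day 6 and 11.2, 6.77 and 14.6 FPKM in uninduced mice (-0.88 ± 0.28, adjusted p = 0.0422). The bromodomain gene Brwd1 (-0.70 ± 0.16) and the splicing regulator gene Tra2a (-0.78 ± 0.13, adjusted p = 0.000103) fell, and Tra2a had 3.26 to 5.03 FPKM on day 6 and 7.89, 8.45 and 7.44 FPKM in uninduced mice. Clcf1, a cytokine that stimulates B cells, had 6.84, 6.78, 6.67, 5.47, 7.36 and 5.17 FPKM on day 6 and 15.7, 9.66 and 11 FPKM in uninduced mice (-0.81 ± 0.15, adjusted p = 0.000557). Mapk1ip1 (-0.78 ± 0.17), the sulfotransferase gene Chst3 (-0.68 ± 0.19) and the protease gene Adamts10 (-0.68 ± 0.19) fell too. Arhgap27os3 (-0.79 ± 0.20) lies antisense to another gene, and the labels do not say whether counting used the strand. Kmt2a was called under 4 of 17 alternatives and Tra2a under 16. Adamts10 and Arhgap27os3 lost their calls with both fixed totals, with the low-mitochondrial libraries left out and without uninduced mouse 1. Adamts10 also lost it with only the groups compared and without uninduced mouse 2, and Arhgap27os3 without uninduced mouse 3. Brwd1 kept its call with the fixed total without hemoglobin and lost it with hemoglobin included.

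None of 16 platelet and 6 hemoglobin genes was called by limma or limma-voom (3 and 0 at an unadjusted p under 0.05), and 1 of 30 genes of red cell development rose, Nfe2, a transcription factor of platelet and red cell precursors. It had 27, 34, 30.2, 56.3, 25.4 and 58.7 FPKM on day 6 and 11.4, 20.9 and 21.6 FPKM in uninduced mice (1.03 ± 0.25, adjusted p = 0.00726), again highest in mice 4 and 6. Epb42, a protein of the red cell membrane skeleton, had 184 and 98.4 FPKM in mice 4 and 6, 24.3 to 36.6 FPKM in the other day 6 mice and 7.55, 30.1 and 26.2 FPKM in uninduced mice (1.36 ± 0.57, adjusted p = 0.142). The median of the red cell list was 0.50, and it was 0.21 with the low-mitochondrial libraries left out. The hemoglobin list had a median of 0.23, which turned to -0.03 with the fixed total without hemoglobin. Treml1, a platelet receptor, had 53.2 to 94.2 FPKM on day 6 and 36.1, 57.9 and 46.9 FPKM in uninduced mice (0.68 ± 0.26, adjusted p = 0.1). None of 76 ribosomal protein genes, 18 cell cycle genes, 11 heat shock genes and 13 mitochondrially encoded genes was called by limma or limma-voom (medians 0.36, 0.13, 0.07 and 0.35, with 4, 3, 1 and 3 genes at an unadjusted p under 0.05). With the fixed total without hemoglobin the medians of the cell cycle and heat shock lists turned to -0.07 and -0.16. A cell cycle gene was called higher with a pseudocount of 0.1, and with the low-mitochondrial libraries left out the heat shock gene Dnajb1 was called lower. Of 10 clock genes 1 fell, Cry2 (0.451 to 0.706 FPKM on day 6, 0.994 to 1.17 FPKM in uninduced mice, -0.40 ± 0.11), a call lost with both fixed totals.

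Set against day 4, 56 genes differed on day 6 of 11829 tested (0.473 percent), 36 higher (0.304 percent) and 20 lower (0.169 percent). This comparison shares the day 6 mice with the one above and no uninduced mouse. The 8 highest named by the same filters were Lcn2, Mcemp1, Retnlg, Clec4d, Il1r2, Glipr1, Ccr1 and Il1f9, genes of neutrophils, monocytes or the interleukin 1 family. Lcn2 had a lowest, median and highest value of 19.2, 55.4 and 92.1 FPKM on day 6 and of 12.6, 18.4 and 46.5 FPKM on day 4 (1.11 ± 0.25, adjusted p = 0.0329). Il1r2 had 4.25, 6.37 and 9.91 FPKM on day 6 and 1.95, 2.89 and 4.18 FPKM on day 4, without overlap (0.98 ± 0.18, adjusted p = 0.0055). Clec4d, a partner of Clec4e, had 16.6 to 35.9 FPKM on day 6 and 8.44 to 21.2 FPKM on day 4 (1.03 ± 0.22, adjusted p = 0.0204). Mcemp1, a membrane protein of mast cells and neutrophils, differed by 1.08 ± 0.23, and the interleukin 36 gamma gene Il1f9 by 0.89 ± 0.16. Glipr1 had 10 to 14.9 FPKM on day 6, 2.54 to 9.35 FPKM on day 4 and 7.13 to 8.31 FPKM in uninduced mice (0.96 ± 0.16 between day 6 and day 4), so its day 4 values were on average below both. None of the 36 antiviral genes was called between the days by limma (median 0.02, 6 at an unadjusted p under 0.05) or limma-voom, and Oas1a differed by 0.66 ± 0.28 (adjusted p = 0.235).

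Ear1, an eosinophil ribonuclease gene, went the other way. It was at 0 in all 3 uninduced mice, at 3.11 to 11.8 FPKM on day 4 and at 0.14, 1.06, 0.504, 1.02, 2.28 and 0.679 FPKM on day 6 (day 6 minus day 4 -1.90 ± 0.31, adjusted p = 0.00289). Every day 6 mouse was below every day 4 mouse. Of 8 eosinophil genes tested 2 were lower on day 6 than on day 4. Arhgap17 (-0.42 ± 0.09), Tcf3 (-0.40 ± 0.08), a transcription factor of B cell development, and Scrib (-0.35 ± 0.08), a polarity gene, were also lower on day 6. The count of 56 was 339 without day 4 mouse 5 and 116 without day 6 mouse 6, and 23 to 36 without day 4 mouse 1, 2, 3 or 4 or day 6 mouse 1, 2 or 5. It was 6 with the low-mitochondrial libraries left out and 31 with limma-voom on recovered reads. With limma it was 0 with the fixed total without hemoglobin (954 genes at an unadjusted p under 0.05), with the fixed total with hemoglobin (629) and in the fit of only the groups compared (1576).

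**Figure D5:**
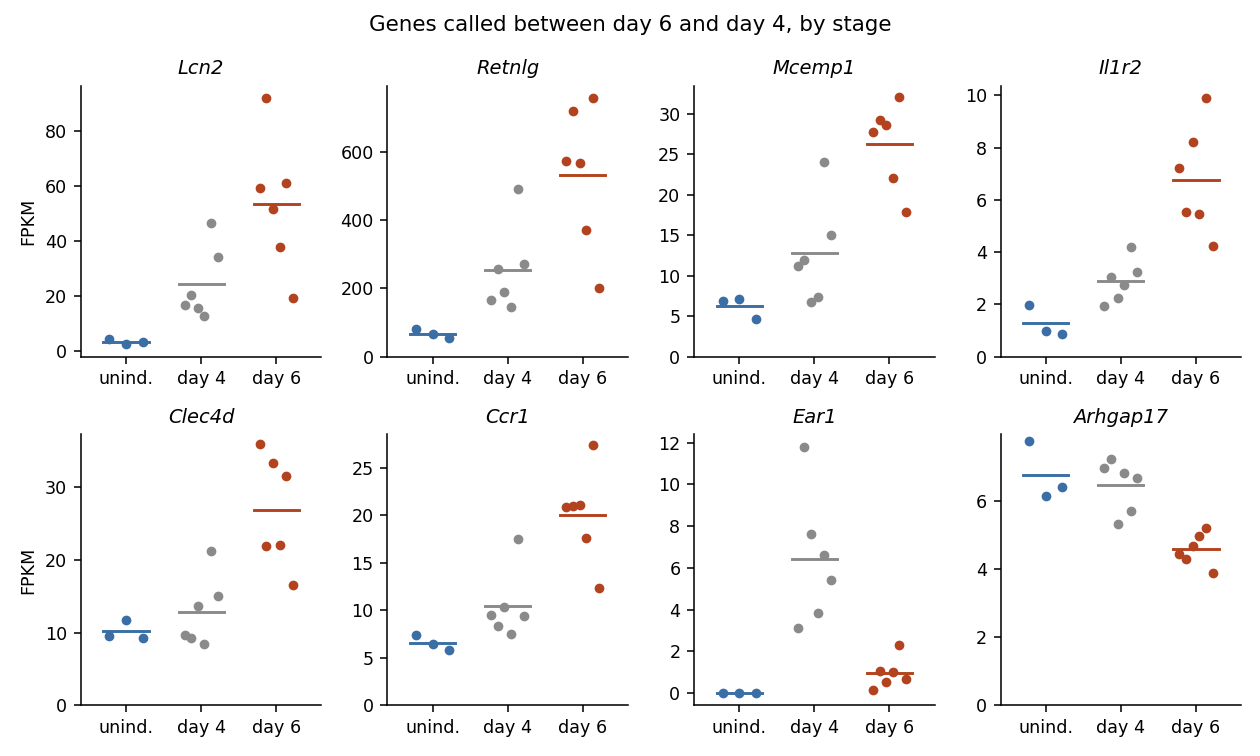
FPKM of 8 genes called between day 6 and day 4 in each uninduced mouse (blue), day 4 mouse (grey) and day 6 mouse (red), with a bar at the mean. The first 6 genes are highest on day 6, Ear1 is at 0 in uninduced mice and highest on day 4, and Arhgap17 is lowest on day 6.

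Whether the day 6 change depended on the interferon receptor was tested as the change in Ifnar1+/+ mice minus the change in mice labelled Ifnar1-/-. The whole-gene level of Ifnar1 was 14.29 to 18.81 FPKM in the 5 day 6 mice and 13.71 to 18.08 FPKM in the 3 uninduced mice labelled Ifnar1-/-, against 6.32 to 9.02 and 8.19 to 10.3 FPKM in the Ifnar1+/+ mice. The transcript was thus higher, not lost, where the label gives a deletion, and the value separates the genotypes without showing the deleted part. Of 11829 genes 3 differed in their change (0.0254 percent), 2 with a higher change in Ifnar1+/+ mice (0.0169 percent) and 1 with a lower one (0.00845 percent). The count was 1 without uninduced Ifnar1+/+ mouse 3 and 5 without day 6 mouse 4 labelled Ifnar1-/- or with the low-mitochondrial libraries left out. With limma it was 0 with a pseudocount of 0.1 (593 genes at an unadjusted p under 0.05) and with only the groups compared (511). S1pr5, a receptor that guides natural killer cells out of the marrow, had 2.5 to 5.69 FPKM on day 6 and 1.36 to 3.77 FPKM in uninduced Ifnar1+/+ mice, and 2.69 to 4.67 FPKM on day 6 and 7.79 to 10.2 FPKM in uninduced mice labelled Ifnar1-/- (difference 1.67 ± 0.30, adjusted p = 0.0142). Klrg1, a receptor of mature natural killer and T cells, had 0.521 to 2.46 and 1.07 to 2.26 FPKM in Ifnar1+/+ mice and 0.331 to 3.46 and 6.24 to 13 FPKM in mice labelled Ifnar1-/-, day 6 first in each pair (2.15 ± 0.41, adjusted p = 0.0329). For both genes the uninduced mice labelled Ifnar1-/- stood above the other 3 groups. The third gene, Mir6907, named after its values were seen, was at 0 in every group of these 17 mice but the uninduced Ifnar1+/+ mice (2.2 ± 1.26 FPKM, SD, n = 3), and is a short gene read at few fragments. Its difference thus rests on the values of those 3 mice alone.

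None of the 36 antiviral genes, 13 granule genes, 11 Ly6C-high monocyte genes or 20 glycolysis genes was called in that test by limma or limma-voom, with medians of 0.38, -0.33, -0.14 and -0.05 and with 5, 2, 0 and 0 genes at an unadjusted p under 0.05. Oas1a was at 0 in the 3 uninduced mice labelled Ifnar1-/- and at 0 to 0.371 FPKM in the 5 on day 6, against 11.8 to 18.2 FPKM on day 6 and 1.8 to 5 FPKM uninduced in Ifnar1+/+ mice (difference 1.65 ± 0.49, adjusted p = 0.459). Isg15 had 21.4 to 95.2 FPKM on day 6 and 14 to 17.6 FPKM in uninduced mice labelled Ifnar1-/- (difference -0.23 ± 0.73). Lcn2 had 64.7 to 108 FPKM on day 6 and 4.86 to 5.19 FPKM in uninduced mice labelled Ifnar1-/- (difference -0.25 ± 0.44, adjusted p = 0.998), and S100a9 differed by -0.23 ± 0.56. A p that misses the threshold does not show that the changes were alike.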

How the data were processed

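Whole-blood RNA of 40 mice was measured, 1 library each. Per the submitters' processing notes the tools named are HISAT2 2.0.5, CASAVA 1.8, DESeq2 1.20.0, featureCounts 1.5.0-p3 and fastp, and the builds are GRCm38 and mm10, with no roles given. The authors deposited FPKM values for 54532 genes. The values gave whole reads (100% within 0.001 read) with a scaling constant of 1.0, so the planned scaled FPKM are the deposited FPKM unchanged. Of the IDs 99.8% were in GENCODE M21. No column was left unmapped. No pair within the Ifnar1+/+ day 6 group or within the uninduced Ifnar1+/+ group looked like a duplicate, and other pairs were not checked.

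log2(FPKM + 1) was fitted with limma 3.58.1 (R 4.3.3; lmFit, contrasts and eBayes with trend) over all 8 groups and 40 libraries, for the 11829 genes that reached 1 FPKM in 3 or more libraries, with Benjamini-Hochberg adjusted p under 0.05. All groups share 1 estimate of the spread. The script was tested on simulated counts, with changes put into 100 genes for each size. It recovered 67 percent of log2 changes of 1 and 95 percent of log2 changes of 2. The median estimates were 0.833 and 0.788 of the true change, and 3.57 percent of calls were false. The changed genes were drawn above a minimum read level, so recovery of low genes was not tested. Tables were made with Python 3.11.15, pandas 2.3.3 and numpy 2.4.6. Alternatives were 2 fixed totals (reads without and with hemoglobin), a pseudocount of 0.1, no filter, only the groups compared, limma-voom on the recovered reads, a replicate block, leaving out libraries with a mitochondrial share under 1.2 percent, and leaving out each mouse.

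Named genes were the 12 called genes with the highest and the lowest log2 change at a mean of 5 FPKM or more, up to 4 of each list by smallest p, 10 genes set by name, and the 8 highest and the lowest by the same filters in the other contrasts. Rankings by log2 change left out predicted or unnamed genes (Gm-numbered, Rik and clone names). They also left out antibody and T cell receptor segments and sex-linked marker genes. The members and lists were chosen with earlier results of these data known. Promoters are RefSeq windows on GRCm38.p6, matched by symbol. The labels call the libraries biological replicates. The p-values of the main fit rest on the spread within groups, pooled over all 8 groups and not only those compared. Day 6 and uninduced libraries held 9156431 to 11391852 fragments, and intervals for counting error were not computed. Results for a few genes are not reported here.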

Additional observations from a re-analysis of the deposited data

Results flagged for a closer look

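Among the 6 day 6 mice, 1 mouse stood far from the others (gap over range above Dixon's 95% critical value) for 9 of 129 measures screened, and chance flags about 1 in 20. Mouse 6 was the lowest for Cxcr2 (0.75), Mmp8 (0.721), Fpr1 (0.713), Ly6g (0.702), Trem3 (0.683), Pirb (0.669) and Adam8 (0.644). Mouse 2 was the lowest for Kmt2a (0.732) and mouse 4 the highest for the basophil gene Ms4a2 (0.647).

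Between day 6 and day 4 the tested differences (limma, log2) were 1.11 for Lcn2, 1.08 for Mcemp1, 1.07 for Retnlg, 1.03 for Clec4d, 0.975 for Il1r2, 0.963 for Glipr1, 0.895 for Ccr1 and 0.889 for Il1f9. They were 0.794 for Il1rn, 0.792 for Klra13-ps, 0.787 for Cxcr2, 0.74 for Trem1 and 0.663 for Tlr2, and -1.9 for Ear1, -0.415 for Arhgap17, -0.402 for Tcf3 and -0.349 for Scrib. Klra13-ps was higher on day 6 than on day 4 and lower on day 6 than in uninduced mice. Between genotypes the change differed by 2.15 for Klrg1, 1.67 for S1pr5 and -1.6 for Mir6907. Of the groups compared, Mir6907 had reads only in the uninduced Ifnar1+/+ mice.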

How the results depend on the processing

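Between day 6 and uninduced mice, 966 genes became 162 with the fixed total without hemoglobin, 57 with hemoglobin in the total and 453 with only the groups compared. Leaving out 1 mouse gave 457 to 1089, lowest without uninduced mice 1 (457) and 3 (488). Between day 6 and day 4, 56 genes became 0 with either fixed total (954 and 629 at an unadjusted p under 0.05) and 0 with only the groups compared (1576), 31 with limma-voom and 6 with the low-mitochondrial libraries left out. Leaving out 1 mouse gave 23 to 339. For the genotype difference 3 genes became 0 with a pseudocount of 0.1 (593 at an unadjusted p under 0.05), 0 with only the groups compared (511), 10 with no filter, 1 with limma-voom and 5 with the low-mitochondrial libraries left out, and 1 to 5 when 1 mouse was left out. The cause was not tested. The replicate block gave 959, 62 and 2 genes. Deviations from the group means correlated at 0.326, 0.0974 and -0.206 between day 6 and uninduced Ifnar1+/+ mice numbered 1, 2 and 3. These 3 values have no reference to set them against, so they cannot settle whether the numbers pair the mice. The main fit used no block, since the labels do not say that mice with the same number belong together. No called gene changed sign under any of the 17 alternatives to the first comparison.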
